A study of Mus musculus with 17 samples.

Results

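Myo10 and 8 further unconventional myosins (Myo1c, Myo1e, Myo5a, Myo5b, Myo6, Myo7a, Myo9a and Myo9b) were followed through all 17 libraries of a mouse embryo RNA sequencing series. They were chosen by name, as 9 of the 41709 gene symbols in the deposited table, and all 9 passed the filter on low values in every comparison. Each library held the RNA of 1 whole embryo of the C57BL/6J strain. At embryonic day 9.5 (E9.5), 4 wild-type embryos (Disp1_WT) were set beside 4 Disp1CS/INDEL embryos (Disp1_CS_INDEL), bred by crossing Disp1CS/+ mothers to Disp1INDEL/+ fathers. At E8.5, 4 Myo10+/+ embryos (Myo10_WT) were set beside 5 Myo10m1J/m1J embryos (Myo10_m1J), bred from parents that both carried 1 copy of m1J. The labels name no added agent in any group. Each library was a separate embryo, but the litter of a single embryo is not given, so p-values measure the spread between these embryos. The question was whether any other myosin of the family changes when Myo10 RNA is low.

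Unconventional myosins are actin-based motors that do not build the filaments of muscle and of nonmuscle myosin II. Their heads bind actin and hydrolyse ATP, their necks carry calmodulin or related light chains, and their tails choose the cargo. Myosin X, the product of Myo10, moves along the actin bundles of filopodia, gathers at their tips and carries integrins and other receptors there. The series title concerns cytonemes, thin filopodia that carry signals between cells, and the endocytic recycling that loads them.

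Myo10 has transcripts from more than 1 start, and a gene-level value adds them together. The RefSeq promoter table for the GRCm38.p6 build, which is not the GRCm39 build named in the submitters' processing notes, lists 2 Myo10 starts 130656 bases apart on the plus strand of chromosome 15. The 250 bases before each are shown because the values below cannot say which start the remaining Myo10 RNA came from. Capitals mark the GC box GGGCGG or its reverse complement CCGCCC, searched on both strands. Matches could overlap, as the last pair in the first sequence does.
Myo10 first start, chr15:25622300-25622549: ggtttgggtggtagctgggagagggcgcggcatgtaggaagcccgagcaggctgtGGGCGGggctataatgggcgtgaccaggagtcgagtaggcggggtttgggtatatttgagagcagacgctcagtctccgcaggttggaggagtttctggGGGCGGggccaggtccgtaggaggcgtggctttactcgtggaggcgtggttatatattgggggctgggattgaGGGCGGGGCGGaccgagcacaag
Myo10 second start, chr15:25752956-25753205: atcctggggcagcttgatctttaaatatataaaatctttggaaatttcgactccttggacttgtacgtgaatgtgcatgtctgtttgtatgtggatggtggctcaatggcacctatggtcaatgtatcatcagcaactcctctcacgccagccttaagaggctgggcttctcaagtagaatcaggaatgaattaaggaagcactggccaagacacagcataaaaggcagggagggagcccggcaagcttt
The first window is 62.8% G and C, has 17 CG pairs and holds 4 GC boxes. The second is 46.0% G and C, has 4 CG pairs and holds 0 GC boxes. Of the 32851 windows of the same length in the table, 32.7% hold at least 1 GC box and 4.09% hold 4 or more. The match is a description of the letters and not of binding.

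Values are TPM, transcript abundance corrected for length and set to add up to 1000000 in every library, so levels can be compared between genes. TPM keeps no read depth, and the depth of each library is unknown. Marker genes of other tissues were summed per library. Decidua and trophoblast markers (6 genes) summed to 742 TPM in Disp1_WT replicate 3 and 216 TPM in Myo10_m1J replicate 2, and lay between 0.601 and 29.9 TPM in the other 15. Of the remaining E8.5 embryos, Myo10_m1J replicate 1 was highest at 28.1 TPM, with 3 of the 6 genes at 1 TPM or more. The highest Myo10_WT embryo had 4.17 TPM. Visceral yolk sac endoderm markers (8 genes) summed to 899 TPM in Disp1_WT replicate 3, 39.1 to 80.7 TPM in the other E9.5 embryos and 626 to 2266 TPM at E8.5. Differences of Myo5b and Myo7a in the Myo10 comparison are also given without Myo10_m1J replicate 2. That of Myo6 between the wild types is also given without Disp1_WT replicate 3. The E8.5 embryos also differed widely in other markers. Primitive erythroid markers (8 genes) summed to 277 to 1636 TPM in Myo10_WT and 77.4 to 4609 TPM in Myo10_m1J. Heart muscle markers (8 genes) summed to 297 to 1507 TPM in Myo10_WT and 469 to 1101 TPM in Myo10_m1J. The part of these tissues in the myosin values was not tested. In whole embryos, fewer cells of a type and less RNA per cell cannot be told apart.

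Myo10 RNA was low in every Myo10_m1J embryo. It measured 33.9, 26.6, 23.0 and 19.9 TPM in the 4 Myo10_WT embryos. In the 5 Myo10_m1J embryos it measured 4.35, 4.31, 3.59, 2.16 and 3.64 TPM. The groups were far apart, the highest mutant embryo lying well under the lowest wild type. The means were 25.8 ± 6.02 TPM (SD, n = 4) and 3.61 ± 0.885 TPM (SD, n = 5), so 14.0% of the wild-type mean remained. The difference in log2(TPM + 1) was -2.54, with an exact two-sided permutation p of 0.0159, the smallest that the 126 regroupings of these embryos can give. In the limma model across all genes the standard error was 0.18, the 95% interval ran from -2.94 to -2.14 and the adjusted p was 6.68e-05. Leaving out any 1 embryo gave between -2.65 and -2.41.

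The fall was as clear within each library, where it does not depend on scaling between libraries. Myo10 made up 17.9%, 15.96%, 17.4% and 16.4% of the summed TPM of the 9 myosins in the Myo10_WT embryos. In Myo10_m1J it made up 3.79%, 3.09%, 3.53%, 2.57% and 3.30%. The group means were 16.9% ± 0.88 (SD, n = 4) and 3.26% ± 0.464 (SD, n = 5). The spread of this share between wild types (5.21% of its mean) was narrower than that of the TPM itself (23.3%). As a ratio to the other 8 members, Myo10 in the mutant stood at 16.5% of its wild-type value. In every E9.5 embryo Myo10 made up between 20.4% and 23.2%.

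**Figure D1:**
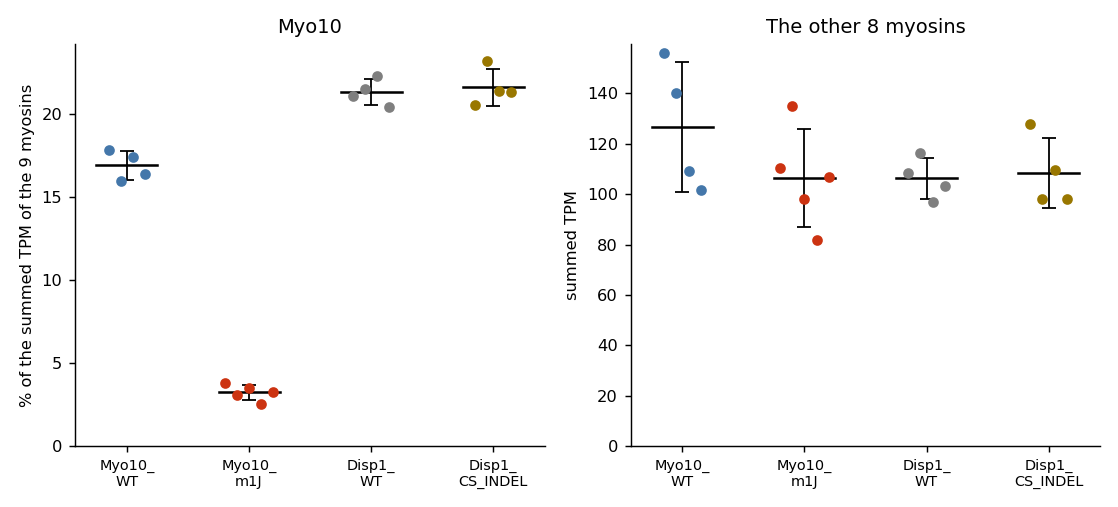
Left, Myo10 as a percentage of the summed TPM of the 9 myosins in each embryo. Right, the summed TPM of the other 8 myosins. Points are embryos, bars are group means with SD (n = 4, 5, 4 and 4 from left to right). The 5 Myo10_m1J embryos sit between 2.57% and 3.79% at left, far below all others, while at right the 4 groups overlap.

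No other member of the family passed the test when Myo10 was low. Over all genes, 1 of 12560 was called in this comparison (limma, Benjamini-Hochberg adjusted p under 0.05, 0.00796% of genes), and it was Myo10 itself. None of the other 8 myosins was called, and none reached an unadjusted p under 0.05, the smallest being 0.0736 for Myo7a. Over all genes 6.80% had an unadjusted p under 0.05 in this comparison, lower values in Myo10_m1J making up 6.46%. Nor was any of the 8 called in 136 further fits with other settings or with 1 embryo left out, where the lowest adjusted p was 0.0846, for Myo7a with the replicate number as a block. All 8 had lower mean TPM in Myo10_m1J, but so did most genes: 94.0% of the genes tested had a negative difference, and the median over all genes was -0.16 in log2(TPM + 1). Median-of-ratios scaling, which sets the typical gene equal between libraries, moved that median to 0.01. Differences of the members are therefore given on both scales.

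Class VII is among the classes like myosin X, since both tails carry MyTH4 and FERM domains. Myo7a, a motor of the stereocilia of the inner ear and of the retinal pigment epithelium, measured 17.8, 16.3, 13.6 and 11.0 TPM in Myo10_WT. In Myo10_m1J it measured 12.2, 14.95, 10.4, 8.79 and 11.5 TPM. The 2 ranges overlapped. The difference was -0.32 (SE 0.16, limma adjusted p = 0.473) as deposited, and -0.14 after scaling, with a 95% interval from -0.34 to 0.07. As a share of the 8 members other than Myo10, Myo7a was 11.6% ± 0.68 in Myo10_WT and 10.8% ± 0.213 in Myo10_m1J (SD, n = 4 and 5). Without Myo10_m1J replicate 2 its deposited difference was -0.41 (limma adjusted p = 0.349). Markers of sensory epithelium (5 genes) summed to at most 0.266 TPM in every E8.5 embryo, with none of the 5 at 1 TPM. Pigment cell markers (5 genes) summed to between 2.02 and 4.00 TPM, with 1 or 2 of the 5 at 1 TPM or more.

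The cargo motors of vesicles and endosomes were likewise not separated. Myo5a, which carries melanosomes and other vesicles along actin, measured 16.3, 13.6, 10.2 and 11.6 TPM in Myo10_WT and 10.9, 12.1, 10.8, 9.47 and 11.5 TPM in Myo10_m1J. Its deposited difference was -0.20 (SE 0.14). The scaled one, -0.02, had the narrowest 95% interval of the 8, from -0.16 to 0.12, or -10.8% to 8.82% on the TPM + 1 scale. Myo5b, which works with Rab11 in endosome recycling, measured 7.93, 6.25, 4.92 and 4.29 TPM in Myo10_WT and 4.16, 7.68, 4.13, 3.77 and 3.32 TPM in Myo10_m1J. The Myo10_m1J replicate 2 embryo, the one with the highest sum of decidual markers at E8.5, stood above the other 4 mutants for Myo5b. With it the deposited difference of Myo5b was -0.31, and without it -0.47 (limma adjusted p = 0.473 and 0.349). After scaling Myo5b differed by -0.14, with a wide interval from -0.52 to 0.25.

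Myo6 encodes the myosin that walks toward the pointed end of actin and acts in endocytosis through adaptors such as Dab2. It measured 17.1, 14.97, 12.7 and 7.63 TPM in Myo10_WT and 10.5, 14.1, 8.28, 5.98 and 10.1 TPM in Myo10_m1J. The ranges overlapped. The deposited difference was -0.38 (SE 0.24). On the scaled values Myo6 had the widest interval of the 8, from -0.61 to 0.21 around a scaled difference of -0.20. Across the E8.5 embryos the lowest Myo6 of each group was in the embryo with the lowest sum of yolk sac endoderm markers, 731 TPM in Myo10_WT replicate 4 and 626 TPM in Myo10_m1J replicate 4. The highest in each group was in the embryo with the highest sum, 2266 TPM in Myo10_WT replicate 1 and 1878 TPM in Myo10_m1J replicate 2. Both held for Myo1c and Myo7a as well, and not for the other 6 members in both groups. The match of the highest embryo alone was not particular to these genes. It held for every member in Myo10_WT and for every member but Myo10 in Myo10_m1J. The match of the lowest embryo held in both groups for Myo10 too. The part of this tissue in these values was not tested. Dab2 itself measured 60.3 ± 19.2 TPM in Myo10_WT and 42.9 ± 11.9 TPM in Myo10_m1J (SD, n = 4 and 5), a difference of -0.47 (limma adjusted p = 0.473).

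Class I myosins link membranes to actin as single-headed motors. Myo1c, which acts in membrane traffic and tension, was the most abundant member at E8.5, with 38.0, 35.1, 29.5 and 23.1 TPM in Myo10_WT. In Myo10_m1J it measured 29.7, 35.9, 24.4, 20.7 and 30.6 TPM. Myo1e, a long-tailed form known from the kidney filter and from endocytosis, measured 9.46, 9.02, 6.04 and 8.73 TPM against 7.75, 8.88, 8.11, 6.80 and 6.65 TPM. The sign of both depended on scaling: Myo1c differed by -0.15 as deposited and 0.04 after scaling, and Myo1e by -0.10 and 0.08. The scaled 95% intervals ran from -0.18 to 0.27 for Myo1c and from -0.15 to 0.31 for Myo1e.

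Class IX myosins are motors whose tails carry a GTPase-activating domain. Myo9a measured 15.2, 13.0, 9.38 and 10.2 TPM in Myo10_WT and 9.86, 11.98, 9.58, 8.19 and 9.89 TPM in Myo10_m1J. Myo9b measured 34.0, 31.9, 22.8 and 25.2 TPM and then 25.5, 29.5, 22.4, 18.3 and 23.1 TPM. Both sets of ranges overlapped. As deposited Myo9a differed by -0.24 (SE 0.15) and Myo9b by -0.25 (SE 0.15). After scaling Myo9a differed by -0.05 (95% interval -0.22 to 0.11) and Myo9b by -0.06 (-0.22 to 0.10). For Myo9b the 95% interval ran from -32.9% to 5.40% on the deposited TPM + 1 scale and from -14.1% to 7.38% after scaling.

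Of the 9 members, Myo10 alone had groups whose TPM did not overlap, where 0.963% of all tested genes were lower without overlap and 0.0318% higher. The summed TPM of the 8 others was 127 ± 25.6 in Myo10_WT and 106 ± 19.4 in Myo10_m1J (SD, n = 4 and 5). After scaling it was 116 ± 10.4 and 112 ± 10.1, closer than the SD of either group. Leaving out an embryo kept every one of the 8 deposited differences negative, with the smallest at -0.04 for Myo1e and the most negative at -0.60 for Myo6. A missed threshold does not show that the 8 were equal, and the intervals give the changes that these embryos could not separate from none.

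**Figure D2:**
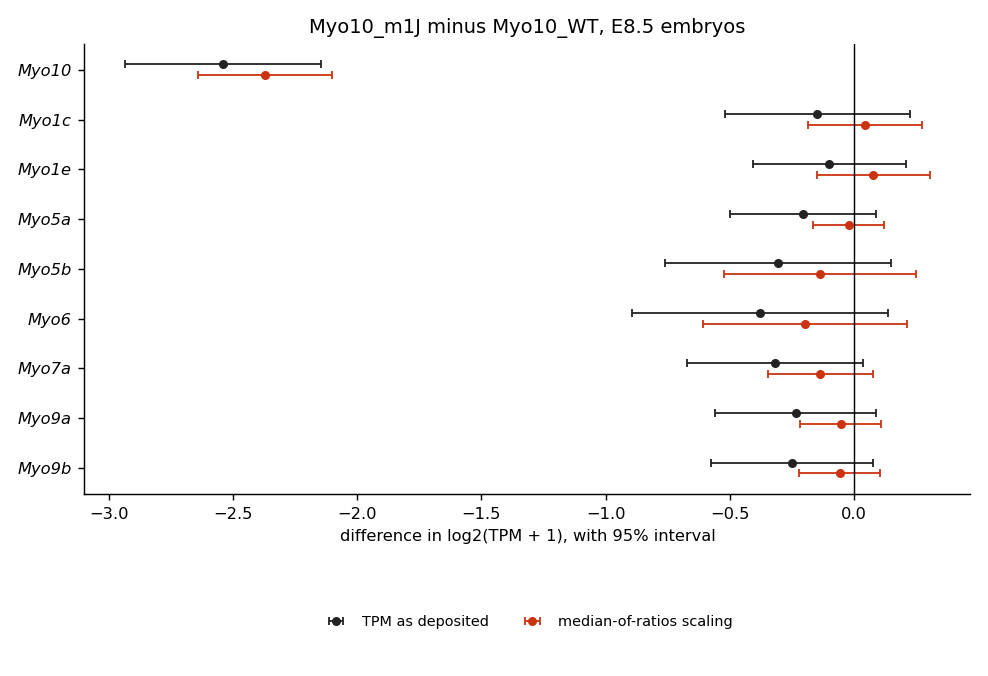
Difference in log2(TPM + 1), Myo10_m1J minus Myo10_WT, for the 9 myosins, with 95% intervals from limma (n = 5 and 4 embryos). Black points are TPM as deposited and red points are after median-of-ratios scaling. Only Myo10, at -2.54 and -2.37, lies away from 0.

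The unconventional myosins outside the 9 were read in the same way. Of 16 such genes in the deposited data, 7 were tested, 0 were called by limma and 1 had an unadjusted p under 0.05 (6.80% of all genes did). Their median difference was -0.15 beside -0.16 for all genes. Myo19, which rides on mitochondria, had the most negative difference at -0.38 (SE 0.17, limma adjusted p = 0.473), and -0.22 after scaling. Myo18a, a PDZ-bearing myosin of the Golgi, followed at -0.36 and -0.18. Myo5c measured 1.41 and 1.17 TPM in these groups, Myo1d 1.52 and 1.48, Myo18b of muscle 1.95 and 1.47, and Myo15b 1.06 and 0.656. Summed over all measured unconventional myosins, Myo10 made up 12.9% ± 0.697 in Myo10_WT and 2.40% ± 0.345 in Myo10_m1J.

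Partners of the motors were read from lists of names. Among 16 cargo and filopodium partners of myosin X (integrins, Dcc and Neo1, the Ena/VASP proteins, fascin and others) 15 were tested, 0 were called and 2 had an unadjusted p under 0.05, a threshold that 6.80% of all genes passed. Their median was -0.16, the same as for all genes. The largest differences were Raph1 (lamellipodin) at -0.32 and Evl, an Ena/VASP protein, at -0.31. Of 19 adaptors and partners of the other members 15 were tested, 0 were called and 0 had an unadjusted p under 0.05, with a median of -0.18. Dab2 and Dynll2, a dynein and myosin V light chain at -0.32, lay farthest out. Of 16 light chains and calmodulins, the neck subunits, 13 were tested and 0 called, with 0 at an unadjusted p under 0.05. Their median was -0.01 beside -0.16 for all genes. Of the 13 differences 6 were positive, where 94.0% of all genes had a negative one. The cardiac light chain Myl2 (0.35, SE 0.66) and the muscle light chain Myl1 (0.12, SE 0.35) had the largest differences and wide errors. Of 14 myosin II heavy chains 4 were tested, 0 were called and 1 had an unadjusted p under 0.05 (6.80% of all genes), with a median of -0.12. The nonmuscle chains Myh9 (-0.37) and Myh10 (-0.22) led them. Each adjusted p for the genes named from these lists was 0.473 or above in limma.

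Of the 5 tested genes on each side of Myo10 on chromosome 15, in RefSeq order, none was called by limma. An unadjusted p under 0.05 was found for 3 of the 10 (Pdzd2, Zfp622 and Fbxl7), beside 6.80% of all genes. All 10 differences were negative, and 7 lay below the all-gene median of -0.16. The differences were -0.36 for Pdzd2, -0.27 for 6030458C11Rik, -0.25 for Drosha, -0.12 for Cdh6 and -0.21 for Basp1 before Myo10. After it they were -0.06 for Retreg1, -0.23 for Zfp622, -0.35 for Fbxl7, -0.23 for Ank and -0.12 for Otulin. All were small beside -2.54 for Myo10.

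The family was next read in the Disp1 mutant, where Myo10 itself is not mutated. Myo10 measured 28.9, 31.9, 27.8 and 26.4 TPM in Disp1_WT and 32.9, 29.6, 29.8 and 26.6 TPM in Disp1_CS_INDEL. The groups overlapped, and the difference was 0.04 with a 95% interval from -0.13 to 0.22, or -8.61% to 16.3% on the TPM + 1 scale. No member was called, where 4 of 13294 genes were by limma (0.0301%). These were Ifi204, higher (0.00752% of genes), and Nkx2-2, Nkx2-9 and Srp9, lower (0.0226%), named after their values were seen. No member had an unadjusted p under 0.05, which only 2.26% of all genes had in this comparison. Every member's TPM ranges overlapped between these groups, where 0.895% of genes were higher and 0.654% lower without overlap. The 7 members other than Myo10 and Myo7a differed by between -0.09 (Myo1c) and 0.10 (Myo1e), and for these 7 the outermost bounds of the 95% intervals were -0.26 and 0.31. None of the 8 was called in 126 further fits, where the lowest adjusted p was 0.992. Of the lists of partners, 0 genes were called by limma and 0 had an unadjusted p under 0.05 (2.26% of all genes did).

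The 2 mutant effects were compared directly in 1 model of all 17 embryos. Each effect was measured at its own age and in its own experiment, so mutant, age and experiment cannot be told apart in this contrast. Myo10 differed between them by -2.58 (SE 0.22, limma adjusted p = 6.62e-06), with lower values in 5 of 5 Myo10_m1J embryos. It was 1 of 3 genes of 13910 called (0.0216%). In this contrast, the Myo10 effect minus the Disp1 effect, Ifi204 was also negative (0.0144% of genes) and Srp9 positive (0.00719%). Both were named after their values were seen. Their signs are those of the contrast: Ifi204 was called higher and Srp9 lower in Disp1_CS_INDEL, and neither was called in Myo10_m1J. None of the other 8 members was called or had an unadjusted p under 0.05, which 4.95% of all genes had. The estimates for them ran from -0.76 for Myo7a (SE 0.50) to -0.06 for Myo1c (SE 0.21), around an all-gene median of -0.16.

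**Figure D3:**
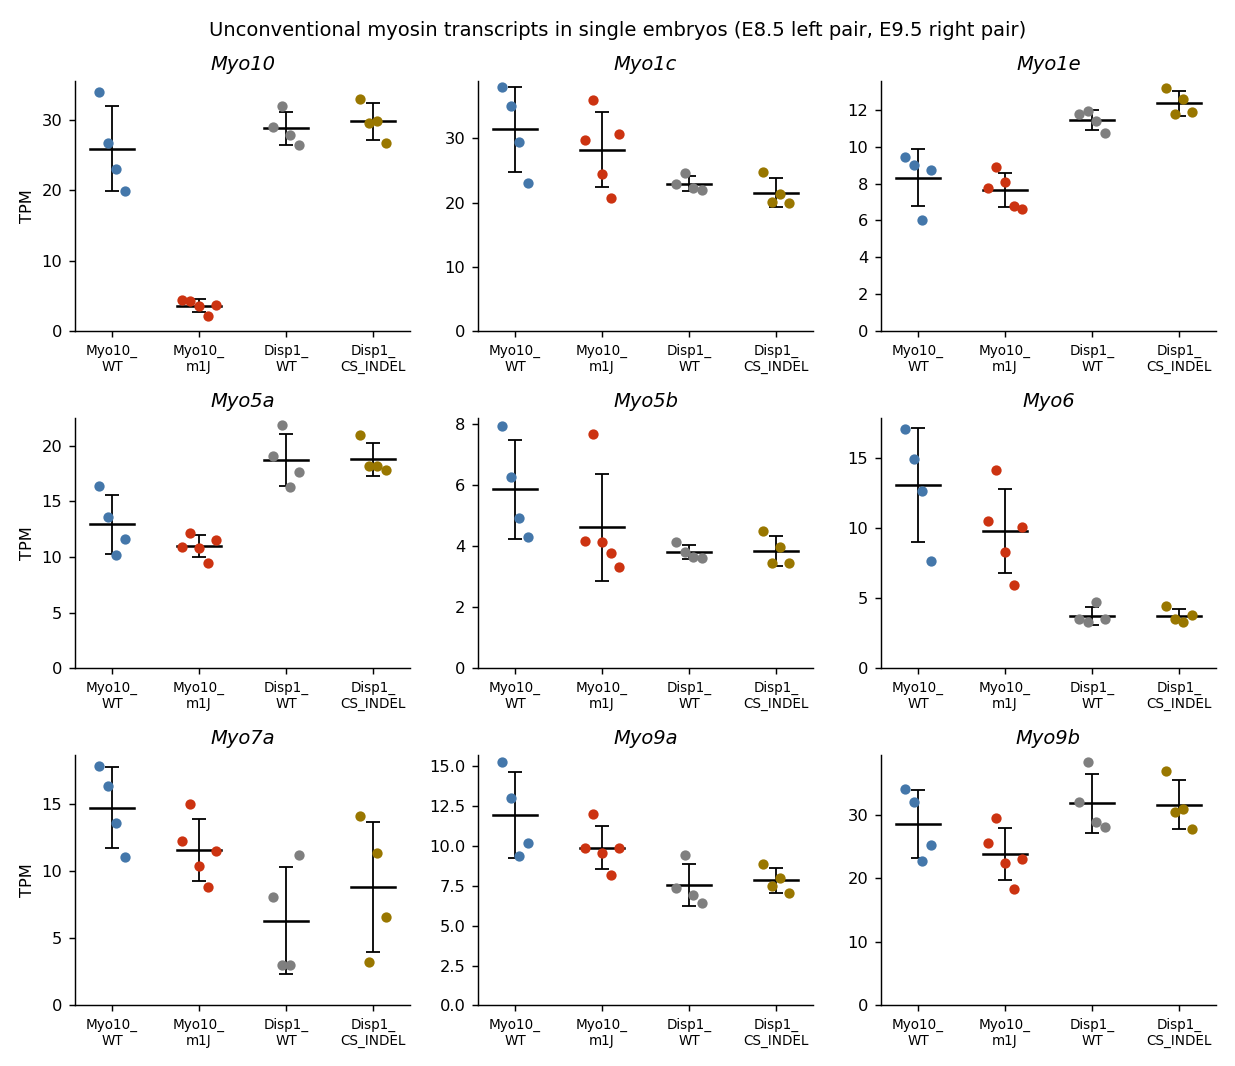
TPM of each of the 9 myosins in every embryo, on a linear axis from 0. Points are embryos, horizontal bars are group means and error bars are SD (n = 4, 5, 4 and 4 from left to right). Myo10 drops in Myo10_m1J alone, Myo6 is higher in both E8.5 groups than in both E9.5 groups, and Myo7a is spread from 3.01 to 14.1 TPM among the E9.5 embryos.

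The order of levels within the family, compared per transcript length, had Myo9b, Myo10 and Myo1c in the first 3 places in every group but Myo10_m1J. In Disp1_WT the order was Myo9b (31.8 ± 4.69 TPM, SD, n = 4), Myo10 (28.8 ± 2.32), Myo1c (22.9 ± 1.17), Myo5a (18.7 ± 2.36), Myo1e (11.5 ± 0.529), Myo9a (7.53 ± 1.32), Myo7a (6.31 ± 4.01), Myo5b (3.80 ± 0.232) and Myo6 (3.76 ± 0.641). Myo9b and Myo10 overlapped, as did each neighbouring pair from Myo9a to Myo6. The other neighbours in that order did not overlap. In Disp1_CS_INDEL the order was the same but for Myo7a (8.81 ± 4.84 TPM) and Myo9a (7.84 ± 0.784), which changed places within their spread. There Myo1c (from 19.9 TPM) and Myo5a (up to 21.0 TPM) overlapped, as did Myo1e and Myo7a.

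At E8.5 the lower part of the order was different. Myo10_WT had Myo1c first (31.4 ± 6.58 TPM, SD, n = 4), then Myo9b (28.5 ± 5.36) and Myo10 (25.8 ± 6.02). Myo1c overlapped Myo9b, and Myo9b overlapped Myo10. Myo7a (14.7 ± 3.02), Myo6 (13.1 ± 4.07), Myo5a (12.9 ± 2.66), Myo9a (11.96 ± 2.69), Myo1e (8.31 ± 1.54) and Myo5b (5.85 ± 1.61) followed, each overlapping the next. The break between Myo10 and Myo7a was the only one without overlap. In Myo10_m1J, Myo10 dropped from the third place to the last, overlapping Myo5b (4.61 ± 1.75 TPM), and the order of the other 8 differed only in Myo6, which stood below Myo5a and Myo9a within their spread.

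The wild types of the 2 ages come from different experiments, so age and experiment cannot be told apart. Scaling also mattered here: 79.6% of 13397 tested genes were called, 69.4% higher and 10.2% lower at E9.5 on the deposited TPM, around a median of 0.62, while median-of-ratios scaling gave 36.4% higher and 36.2% lower. On TPM recomputed over protein-coding genes, histone and mitochondrial ones left out, 26.4% were higher and 45.7% lower. Primitive erythroid markers (8 genes) summed to between 29329 and 39252 TPM in Disp1_WT and between 277 and 1636 TPM in Myo10_WT, and the part of these transcripts in the scale was not tested.

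Of the 9 members 5 were lower in E9.5 Disp1_WT than in E8.5 Myo10_WT under all 3 scalings. Myo6 differed by -1.52 as deposited (SE 0.21, limma adjusted p = 4.43e-05), -2.10 after median-of-ratios scaling and -2.37 with protein-coding genes only. It measured 3.51, 3.34, 4.72 and 3.49 TPM in Disp1_WT, all below the lowest Myo10_WT embryo at 7.63 TPM. Myo7a differed by -1.25, -1.85 and -2.10 under these scalings, Myo9a by -0.59, -1.20 and -1.43, Myo5b by -0.49, -1.04 and -1.27, and Myo1c by -0.41, -1.07 and -1.28. Each of these was called in limma, except that Myo1c as deposited missed the threshold without Myo10_WT replicate 2 (-0.36, adjusted p = 0.0512). Without Disp1_WT replicate 3, the embryo with decidual and yolk sac markers and with the highest Myo6 at that age, the deposited difference of Myo6 was -1.61. Sums of yolk sac endoderm markers were 47.1 to 899 TPM in Disp1_WT and 731 to 2266 TPM in Myo10_WT, and their part in the Myo6 difference was not tested. Dab2 was also lower at E9.5 under all 3 scalings, by -1.37, -2.03 and -2.24 in that order.

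The other 4 members changed sign with the scaling. Myo10 was 0.17 as deposited (limma adjusted p = 0.28), -0.48 after median-of-ratios scaling and -0.68 with protein-coding genes only, the latter pair called. Without Myo10_WT replicate 1 the deposited value of Myo10 was 0.31 and passed (adjusted p = 0.0245). Myo9b gave 0.16, -0.50 and -0.70 in the same way. Myo1e was called higher as deposited (0.44), was not called after median-of-ratios scaling (-0.18, adjusted p = 0.0917) and was called lower with protein-coding genes only (-0.37). Myo5a gave 0.51, -0.13 (adjusted p = 0.214) and -0.32 likewise. On the deposited TPM, Myo1e was higher and Myo5b and Myo6 lower without overlap of the groups, where 66.1% of genes were higher and 7.96% lower.

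**Figure D4:**
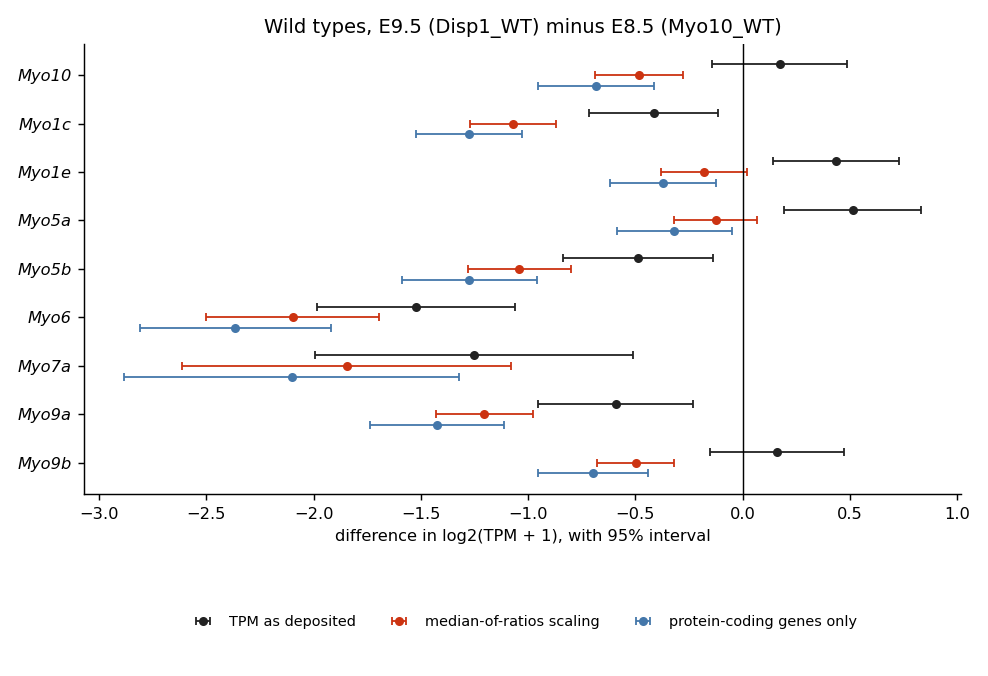
Difference in log2(TPM + 1), Disp1_WT at E9.5 minus Myo10_WT at E8.5, for the 9 myosins with 95% intervals from limma (n = 4 and 4). Black, red and blue points are TPM as deposited, median-of-ratios scaling and protein-coding genes only. Myo6 and Myo7a lie farthest below 0 on all 3 scales, while Myo10, Myo1e, Myo5a and Myo9b cross from above 0 to below it.

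Shares within the family need no scaling between libraries. They are parts of a single sum, so lower shares of some members raise those of the others. Of the summed TPM of the 8 members without Myo10, Myo6 made up 10.2% ± 1.84 in Myo10_WT and 9.03% ± 1.21 in Myo10_m1J, but 3.59% ± 0.876 in Disp1_WT and 3.48% ± 0.368 in Disp1_CS_INDEL (SD). Myo5a went the other way, with 10.2% ± 0.927, 10.4% ± 1.03, 17.6% ± 0.861 and 17.4% ± 1.08 in that order. Myo1e did too, with 6.66% ± 1.34, 7.28% ± 0.958, 10.8% ± 0.644 and 11.5% ± 0.80. As levels, Myo5a and Myo1e changed sign with the scaling, so a higher share is not a higher level. For Myo6, Myo5a and Myo1e, and for Myo9a and Myo9b, the shares of the E8.5 and E9.5 embryos did not overlap, whatever the genotype. For Myo1c, Myo5b and Myo7a the shares overlapped. Separation was common between these ages: in the deposited TPM of the wild types, 66.1% of all tested genes were higher and 7.96% lower without overlap. An all-gene figure for shares was not made. Of the myosins outside the 9, Myo16, a neuronal myosin, measured 0.265 ± 0.102 TPM in Myo10_WT and 2.93 ± 0.284 TPM in Disp1_WT. Myo1d, a class I motor, measured 1.52 ± 0.255 and 4.44 ± 0.745 TPM. Both were called higher at E9.5 under all 3 scalings, and Myo5c, of epithelial secretory cells, was called lower under all 3. Myo18a and Myo19 changed sign with the scaling.

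Myo7a was the most variable member at E9.5. It measured 8.04, 3.03, 3.01 and 11.2 TPM in Disp1_WT and 14.1, 3.24, 11.4 and 6.57 TPM in Disp1_CS_INDEL. The 3 lowest embryos, from both genotypes, lay between 3.01 and 3.24 TPM, and the next lay at 2.03 times the highest of them. The difference between genotypes was 0.44 (SE 0.45, 95% interval -0.56 to 1.43, limma adjusted p = 1.00). At E8.5 no such gap was seen, with the 9 embryos between 8.79 and 17.8 TPM. The following genes were chosen after their values were seen. Alg8, of protein glycosylation, lies near Myo7a on chromosome 7 and had the same 3 lowest embryos, at 20.1, 21.1 and 18.8 TPM, beside 27.7 to 38.6 TPM in the other 5. Capn5, a calpain protease next to Myo7a, had them at 7.20, 6.34 and 6.85 TPM, beside 8.10 to 9.29 TPM. Of the 20 tested genes nearest to Myo7a, 4 (Alg8, Clns1a, Capn5 and Mogat2) had these 3 embryos lowest, as did 109 of all 13294 tested genes (0.82%). Pak1, another of the 20, did not, with 43.1 to 63.6 TPM and its highest value in one of the 3. Sensory epithelium markers (2.15 to 6.57 TPM in sum) and pigment cell markers (2.89 to 6.22 TPM) were highest in Disp1_CS_INDEL replicate 2, one of the embryos with the lowest Myo7a. In each E9.5 embryo only 1 of the 5 sensory markers, and 1 or 2 of the 5 pigment markers, reached 1 TPM. These sums therefore rest on few genes, and the part of these tissues in Myo7a was not tested.

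**Figure D5:**
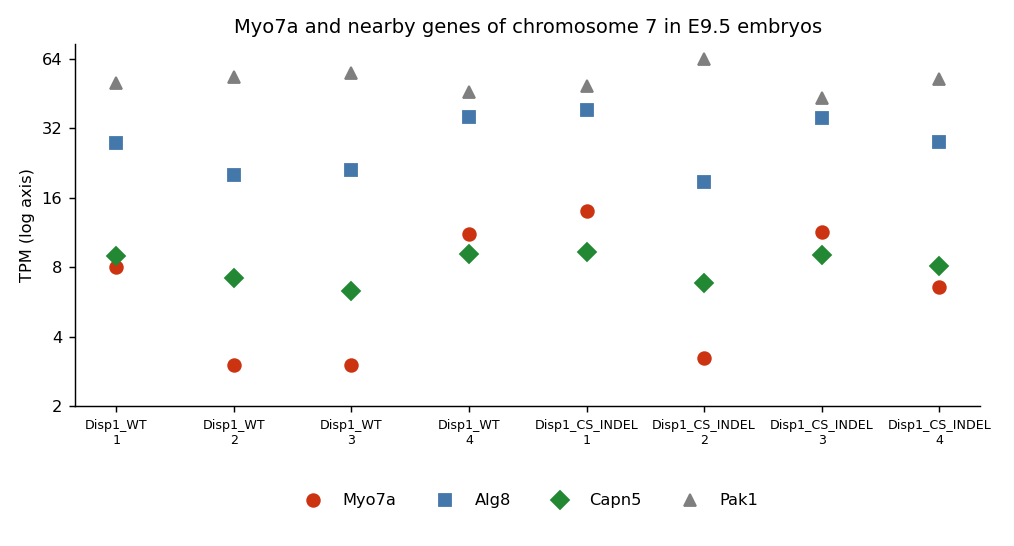
TPM of Myo7a, Alg8, Capn5 and Pak1 in the 8 E9.5 embryos, on a log axis. Each symbol is 1 gene in 1 embryo, named by group and replicate. Disp1_WT replicates 2 and 3 and Disp1_CS_INDEL replicate 2 hold the 3 lowest values of Myo7a, Alg8 and Capn5, and not of Pak1.

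Among all genes, those whose log2(TPM + 1) followed Myo10 most closely over the 12 embryos outside Myo10_m1J were Myo18a (Pearson r 0.964, Spearman correlation 0.916), Il6st, the shared receptor of the interleukin-6 family (0.962 and 0.944), and Cit, the kinase citron (0.961 and 0.958). Without the 2 embryos farthest from the Myo10 median the Pearson r was 0.891, 0.88 and 0.954. Of the members, Myo9b came closest, with a Pearson r of 0.863 at rank 304 of 13910 genes, followed by Myo5a at 0.804. Without the same 2 embryos Myo9b had 0.813 and Myo5a 0.503. Myo6 and Myo7a had r of -0.21 and -0.13, which turned to 0.17 and 0.124 without them. These are descriptions over 12 libraries that share their scale, their ages and their composition. Over all 17 libraries Apex2, Gpr63 and Tet3 ranked first, but the Myo10_m1J embryos form a cluster of their own there, and no pooled r is given.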

How the data were processed

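Each embryo was a separate animal, and total RNA was sequenced. The deposited table holds TPM for 41709 symbols in 17 libraries, a unit in which the authors' values sum to 1000000 per library. The submitters' processing notes name GRCm39 (mm39); the sources used here do not give the read aligner, the quantification tool or its annotation. Columns were mapped by sample title, and no library was left out.

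A gene entered a comparison if 4 or more of its libraries reached 1 TPM, and was tested as log2(TPM + 1), which understates folds of low genes, with limma 3.58.1 in R 4.3.3 (mean-variance trend, Benjamini-Hochberg adjusted p under 0.05 over all genes). The Myo10 level also had an exact two-sided permutation test. The fits were tested on simulated data. Other settings tried were no filter, a filter on a mean TPM of 5, a pseudocount of 0.1, 2 other scalings, no trend, a joint fit, a replicate block and each library left out. Biotype and gene order came from RefSeq (GRCm38.p6), where 30294 symbols matched.

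The members and lists were chosen with earlier results of these data known. Named genes were the members, genes called in the Myo10 comparison, other unconventional myosins with a mean of at least 1 TPM in a group, the 2 largest differences of each partner list, the 3 most like Myo10, and its 5 neighbours on each side. Genes said to be chosen later lie outside this rule, and some genes within it are not reported here. Versions of other tools were Python 3.11.15, numpy 2.4.6, pandas 2.3.3 and scipy 1.17.1.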

Additional observations from a re-analysis of the deposited data

Results flagged for a closer look

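In 36 groups of 4 or 5 embryos (9 members in 4 groups), 3 had 1 embryo far from the others by a gap test that chance passes in about 1 in 20 groups. Myo5a was 20.96 TPM in Disp1_CS_INDEL replicate 1, with the nearest embryo at 18.2 TPM. Myo5b was 7.68 TPM in Myo10_m1J replicate 2, the embryo whose decidua and trophoblast markers summed to 216 TPM, with the nearest at 4.16 TPM. Myo6 was 4.72 TPM in Disp1_WT replicate 3, whose decidual and yolk sac endoderm markers summed to 742 and 899 TPM, with the nearest at 3.51 TPM. The part of these tissues in the values was not tested.

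Myo10 was the only member whose change differed between the mutants by the direct test (-2.58 in log2, limma adjusted p = 6.62e-06), with lower values in 5 of 5 Myo10_m1J embryos.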

How the results depend on the processing

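Myo10 in Myo10_m1J kept its direction and its call in all 17 other fits, between -2.82 (pseudocount of 0.1) and -2.37 (median-of-ratios scaling), and leaving out 1 embryo gave -2.65 to -2.41 with exact permutation p of 0.0286 to 0.0357, the smallest each allows. Genes called in that comparison numbered 1, but 2 with no filter, 46 with a replicate block (1 higher and 45 lower, none of the other 8 members) and 1 to 3 with 1 embryo left out (3 without Myo10_WT replicate 4). In the Disp1 comparison 4 became 2 with no filter, with a mean TPM of at least 5, with the replicate block and in 1 fit of all 17, became 8 after scaling (2 higher, 6 lower), and ranged from 1 to 3 with 1 embryo left out: it was 2 when Disp1_WT replicate 1, Disp1_WT replicate 2 or Disp1_CS_INDEL replicate 1 was dropped, and 1 when any of Disp1_CS_INDEL replicates 2, 3 and 4 was. For the difference of the mutant effects 3 became 8 with no filter and 2 to 4 with 1 embryo left out. Counts between the wild types of the 2 ages stayed within 1.5 times of 10668 (8308 to 12957). The causes were not tested.

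Signs turned as follows. In the Disp1 comparison, median-of-ratios scaling gave -0.0026 for Myo5a, -0.0042 for Myo5b and -0.0088 for Myo6. In the Myo10 comparison scaling gave 0.0442 for Myo1c and 0.0784 for Myo1e, and protein-coding genes only gave 0.0066 for Myo1e. The Myo1c difference of the effects was 0.13 and 0.057 under these 2 settings, and with 1 embryo left out it ranged from -0.19 to 0.0467. Between the wild types, scaling and protein-coding genes only gave -0.48 and -0.68 for Myo10, -0.18 and -0.37 for Myo1e, -0.13 and -0.32 for Myo5a, and -0.50 and -0.70 for Myo9b. With 1 embryo left out, Disp1 differences ranged from -0.0047 to 0.0942 for Myo10, -0.0512 to 0.082 for Myo5a, -0.0568 to 0.0448 for Myo5b, -0.0632 to 0.0924 for Myo6, -0.0020 to 0.16 for Myo9a and -0.0843 to 0.0835 for Myo9b. None of these was called on either side except between the wild types.

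Replicate numbers showed no clear pairing of the samples: same-numbered embryos correlated at 0.09, 0.08, -0.24 and 0.35 in the Disp1 groups and -0.05, 0.15, -0.29 and 0.46 in the Myo10 groups, and the best match was the same number in 1 of 8. In the Myo10 comparison, however, the block raised the genes lower in Myo10_m1J at an unadjusted limma p under 0.05 from 811 to 4506 of 12560. Whether same-numbered embryos share anything is therefore not settled, and the block is only an alternative. TPM carries no depth, so what depth limits is unknown, and 4 or 5 embryos per group leave the intervals for Myo5b, Myo6 and Myo7a wide.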

Other observations

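Among the 13294 genes tested at E9.5, 9 including Myo7a had its 3 lowest embryos with a wide gap to the next, from 1.26 times (Gmpr) upward. Myo7a set the choice, so its own place on chromosome 7 does not count. Besides it, Alg8 alone of those with a known chromosome lies on chromosome 7, which holds 7.39% of the genes tested. Alad, an enzyme of haem synthesis on chromosome 4, measured 119, 122 and 112 TPM in those embryos and 197 to 261 TPM in the other 5. Hdhd3, also on chromosome 4, measured 7.41, 8.32 and 9.30 TPM beside 13.2 to 15.8 TPM. These genes were chosen after their values were seen, the embryos come from both genotypes, and no test was made.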
